A study of Mus musculus with 60 samples.

Results

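VC is a pair of small molecules, ascorbic acid (vitamin C, 50 µg/ml) and the GSK3 inhibitor CHIR (3 µM), added to fibroblasts while they were being reprogrammed, and its effect was read here in WT 4F cells after 4 days of doxycycline. The comparison rests on 6 libraries, 3 with VC and 3 without, all the libraries whose labels give these conditions, out of 36 libraries in the reprogramming count table and 60 samples in the series. The study asked how cells deficient in the DNA repair nuclease ERCC1-XPF respond to OCT4, SOX2, KLF4 and MYC (OSKM), and its reprogramming RNA-seq covered WT and Ercc1-deficient cells on 3 days (0, 2 and 4), each in the presence or absence of VC.

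All 6 libraries came from 1 line of tail tip fibroblasts, labelled 4FJ_(+/-)_OCT4-GFP, from a 22-week-old female mouse. The line carries OSKM as a single doxycycline-driven transcript in the Col1a1 locus and an Oct4-GFP reporter, and both groups were kept at 3% oxygen and received 2 µg/ml doxycycline, so that of the conditions the labels list the groups differed in VC alone. VC was given as both molecules together, and the change due to either one cannot be told apart. RNA was extracted in triplicate from this line, and nothing says that the replicates were separate cultures or animals. Every p-value below rests on a spread between replicate libraries, estimated over all 36 libraries of the reprogramming table, Ercc1-deficient cells included. It cannot be taken to measure the spread between cultures or animals. Reads of the transgene and of the endogenous OSKM genes cannot be told apart in a table of reads per gene, and in bulk RNA a change in the share of cells that make a transcript cannot be told apart from a change in its amount per cell. For comparison, the same contrast was taken in WT cells at day 0 (no doxycycline, with the time in VC not given in the sources used here) and day 2, and at day 4 in D/KO 4F cells, labelled 4FJ_ERCC1_(d/-), whose genotype, sex (male), age (8 weeks) and line all differ from the WT cells and cannot be separated.

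GSK3 marks β-catenin for degradation. When the kinase is inhibited, β-catenin accumulates and, with TCF/LEF factors, switches on target genes of the Wnt pathway, several of which (Axin2, Nkd1, Dkk1) feed back to restrain it. Ascorbic acid keeps the iron of a family of dioxygenases reduced, among them the prolyl and lysyl hydroxylases of collagen, the Tet enzymes that oxidise methylated DNA, the JmjC histone demethylases and the hydroxylases that destabilise hypoxia-inducible factors. Early in reprogramming, fibroblasts are known to divide faster, to lose mesenchymal genes and to gain epithelial ones.

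VC changed 22.4% of the genes tested in WT cells at day 4. Of 15832 genes tested, 1897 (12%) were higher with VC and 1645 (10.4%) were lower, and 639 and 549 of these passed a 2-fold change. Here and below, a gene "rose" or "fell" where edgeR's quasi-likelihood test gave a Benjamini-Hochberg adjusted p under 0.05 over all tested genes, and values are CPM in each library (reads assigned to a gene, scaled to a common library size with edgeR's TMM factors). The median log2 fold change over all tested genes was 0.032, so the list medians given below are to be read against a value near 0. The 6 libraries held 16538374 to 18187048 assigned reads each. The replicates differed by more than counting noise, with a variance 3.29 to 4.44 times that of counting between libraries without VC and 5.69 to 15.7 times between libraries with VC, replicate 1 with VC standing farthest from its group.

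The 6 libraries separated fully by VC in a principal component analysis of the 18 WT libraries. The first component (55.9% of the variance) ran with days of doxycycline and the second (26.2%) with VC, but VC also moved the first. Its group means went with VC from 15.6 to 34.9 at day 4 and from 0.0480 to 17.6 at day 2. At day 0 they went the other way, from -29.5 to -38.6. VC moved the day 4 libraries by 34.7 units over these components, against 45.1 units between day 0 and day 4 without VC, a ratio of 0.769 ± 0.0304 (SD over the 3 libraries with VC). The libraries of a group lay 1.96 units apart on average. The day 4 libraries with VC lay 18.3 units from the day 2 libraries with VC, and 35.0 units separated the latter from the day 4 libraries without VC. The ratio rose to 0.843 over 2000 genes and to 0.884 over all tested genes, and no test was made of these distances.

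**Figure D1:**
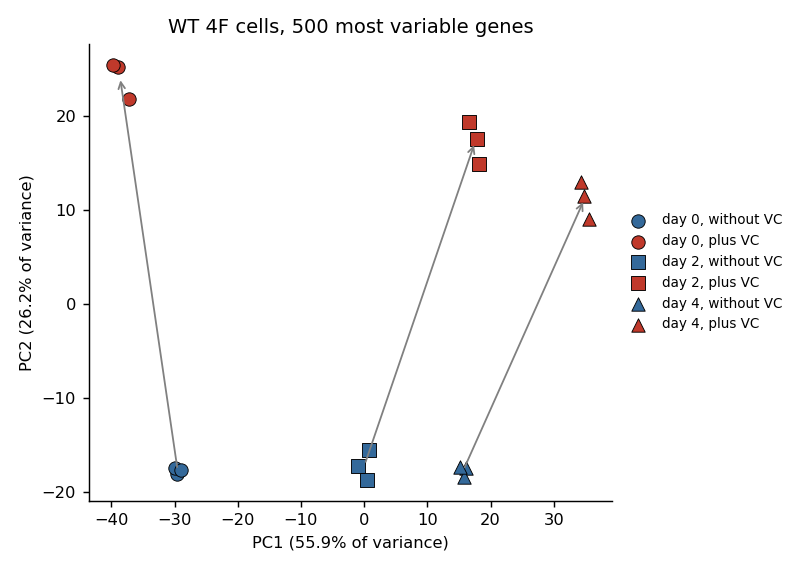
First and second principal components (units of log2 CPM; the share of variance is on each axis) of the 18 WT libraries, 1 point per library, with an arrow from the mean without VC to the mean with VC on each day. The day 4 arrow spans 34.7 units, against 42.8 at day 0 and 38.6 at day 2, and libraries of 1 group lie close together on every day.

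The Wnt pathway did not move as a block. Of 25 feedback targets listed, 18 passed the filter on low counts, and of these 4 rose and 2 fell (median log2 fold change 0.073). The share that rose was 22.2% against 12% of all tested genes, and 11.1% fell against 10.4%. Over alternative fits, such as leaving out 1 library, 3 to 4 rose and 0 to 4 fell. Axin2 (ENSMUSG00000000142, GRCm39 chromosome 11, 108811175 to 108841609, plus strand), the scaffold of the β-catenin destruction complex and a widely used readout of the pathway, read 1.38, 1.80 and 1.55 CPM without VC and 16.7, 17.7 and 19.8 CPM with VC. All 3 libraries with VC were far above all 3 without it, an 11.4-fold rise (log2 fold change 3.51, SE 0.27, adjusted p = 1.94e-12). Apcdd1, a membrane inhibitor of Wnt signalling, went from 23.2, 25.9 and 26.1 to 107, 103 and 110 CPM (log2 fold change 2.09, adjusted p = 1.68e-15). Tcf7, which encodes a TCF/LEF factor, rose by 2.36 on the log2 scale from 1.05 to 2.71 CPM without VC. Ccnd1, cyclin D1, was higher by 0.32 (adjusted p = 0.0413), a call that was lost when any 1 of the 6 libraries was left out, and the gene overlaps Lto1 on the other strand.

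Other feedback genes fell, were not called or had no reads. Nkd1 (ENSMUSG00000031661, GRCm39 chromosome 8, 89247982 to 89321512, plus strand), an inhibitor that acts on Dishevelled, read 11.4, 10.7 and 9.05 CPM without VC and 3.08, 2.85 and 1.83 CPM with VC (log2 fold change -2.01, SE 0.28, adjusted p = 8.72e-07). The groups did not overlap. Lef1, the other TCF/LEF gene of the list, read 2.25 to 3.50 CPM without VC and 0.807 to 0.823 CPM with it (log2 fold change -1.81, adjusted p = 0.00197). Nkd2, a paralog of Nkd1, read 12.5, 11.3 and 12.6 CPM without VC and 12.3, 16 and 12.7 CPM with VC, and these ranges overlapped (log2 fold change 0.17, adjusted p = 0.713). Lgr5, an R-spondin receptor, read 45.0 to 49.7 and 35.2 to 40.7 CPM (adjusted p = 0.377). No read was assigned to Sp5, Dkk1, Dkk4, Cdx1 or Cdx2 in any of the 6 libraries, although these are targets in many other cells.

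Axin2 rose with VC in each comparison, and the Nkd genes changed differently at day 0. The Axin2 log2 fold change with VC was 4.26 at day 0, 2.72 at day 2 and 2.50 in D/KO cells at day 4, and none of these was shown to differ from day 4 in WT cells (adjusted p of the difference 0.214, 0.226 and 0.0852). Nkd1 was 0.51 at day 0 and the difference from day 4 passed the test (adjusted p = 6.65e-06). Nkd2 stood at 9.44 CPM at day 0 and 99.5 CPM with VC there (means of 3), a log2 fold change of 3.40 that differed from day 4 with adjusted p = 3.52e-08. At day 2 its mean went from 6.15 to 24.1 CPM. Apcdd1 rose less in D/KO cells (0.78, adjusted p of the difference 4.45e-07), where it already stood at 143 CPM without VC.

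Promoter windows of 3 feedback genes that behaved differently are shown, because a TCF/LEF site near the start is one feature that could be looked up in them. Each window runs from 250 bases before to 50 after the start in RefSeq (GRCm38.p6, plus strand in all 3), and the letters CTTTGAA and CTTTGAT were searched on both strands, with matches in capitals.
Axin2 (chr11:108920099-108920398), which rose: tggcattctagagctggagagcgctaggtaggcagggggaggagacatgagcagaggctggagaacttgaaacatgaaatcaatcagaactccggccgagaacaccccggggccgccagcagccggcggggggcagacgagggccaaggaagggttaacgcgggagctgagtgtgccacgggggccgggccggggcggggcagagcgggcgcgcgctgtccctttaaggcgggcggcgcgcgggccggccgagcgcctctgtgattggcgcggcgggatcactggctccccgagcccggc
Nkd1 (chr8:88527383-88527682), which fell: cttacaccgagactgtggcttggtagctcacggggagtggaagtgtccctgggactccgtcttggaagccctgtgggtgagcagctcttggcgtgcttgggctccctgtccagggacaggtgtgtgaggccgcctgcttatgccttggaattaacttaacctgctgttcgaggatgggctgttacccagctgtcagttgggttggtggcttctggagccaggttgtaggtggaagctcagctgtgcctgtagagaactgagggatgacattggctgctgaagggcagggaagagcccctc
Sp5 (chr2:70474673-70474972), which had no reads: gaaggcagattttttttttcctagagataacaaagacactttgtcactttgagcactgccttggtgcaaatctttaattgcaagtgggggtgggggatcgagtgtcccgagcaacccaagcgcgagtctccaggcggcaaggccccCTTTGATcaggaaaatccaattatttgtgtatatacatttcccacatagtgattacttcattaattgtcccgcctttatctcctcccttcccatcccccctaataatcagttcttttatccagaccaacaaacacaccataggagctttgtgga
The Axin2 and Nkd1 windows held neither run of letters, and Sp5 held CTTTGAT starting 104 bases before its start. Of the 15 feedback targets with a window, 5 (33.3%) held a match, Sp5, Sp8, Tnfrsf19, T and Dkk1, against 9.88% of 27025 genes. A gene with several windows has more chances of a match. Counted by window, the shares were 21.7% of 23 against 8.65% of 32851. Apcdd1 and some other listed targets were not among the 15, so these shares do not cover the whole list. Of the 5 genes with a match, Sp8, T and Dkk1 were not tested and Sp5 had no reads at day 4, so nothing is drawn from their calls.

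Wnt ligands and secreted antagonists fell more often than they rose. Of 23 ligands and R-spondins, 18 were tested, 6 fell and 1 rose (33.3% and 5.56%, against 10.4% lower and 12% higher of all genes, median log2 fold change -1.15 beside 0.032). Rspo3, a secreted amplifier of Wnt signalling, read 36.5, 41.1 and 42.5 CPM without VC and 7.44, 8.12 and 7.58 CPM with VC (log2 fold change -2.37, SE 0.22, adjusted p = 1.67e-10), and its fall in D/KO cells was -4.06. Wnt2b went from 16.9, 19 and 16.8 to 4.59, 3.02 and 4.41 CPM (log2 fold change -2.13), and Wnt4 from 32.6, 27.8 and 30.0 to 9.65, 10.6 and 7.21 CPM (log2 fold change -1.72). In both genes every library with VC was below every library without it, as it was for Rspo3. Wnt16, Wnt2 and Rspo2 fell by 2.63, 1.89 and 1.69 on the log2 scale. Wnt9a was the exception, at 15.4, 15.2 and 14.5 CPM without VC and 33.4, 37.9 and 35.4 CPM with VC (log2 fold change 1.25, adjusted p = 2.29e-07). It was -0.51 in D/KO cells, and this difference passed the test (adjusted p = 9.65e-07).

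Among 8 secreted antagonists 6 were tested, and 4 of them fell (66.7% against 10.4% of all tested genes, median -1.32). Sfrp1, which binds Wnt ligands outside the cell, read 285, 283 and 286 CPM without VC and 82.2, 75.7 and 89.5 CPM with VC (log2 fold change -1.79, SE 0.13, adjusted p = 9.99e-13). The spread within each group was small beside the gap. The same gene rose with VC at day 0 (0.51) and its change at day 2 was 0.33, which did not pass, and both differences from day 4 passed the test (adjusted p = 1.90e-11 and 9.51e-10). Dkk3 went from 254, 255 and 253 to 126, 119 and 130 CPM (log2 fold change -1.02), and Sostdc1 from 9.62, 12.3 and 10.8 to 0.116, 0.549 and 1.08 CPM (log2 fold change -4.20, adjusted p = 1.53e-09). Receptors and core components numbered 29 tested, of which 6 fell and none rose (20.7% lower against 10.4%, and 12% of all genes rose). Over the alternatives 4 to 13 of them fell. Fzd4, a Frizzled receptor, read 11.8, 10.1 and 10.7 CPM without VC and 2.79, 1.87 and 2.10 CPM with VC (log2 fold change -2.27, adjusted p = 2.08e-10). The other falls were 0.88 (Pygo1), 0.70 (Fzd8), 0.51 (Ror2), 0.38 (Tcf7l2) and 0.32 (Lrp5) on the log2 scale.

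**Figure D2:**
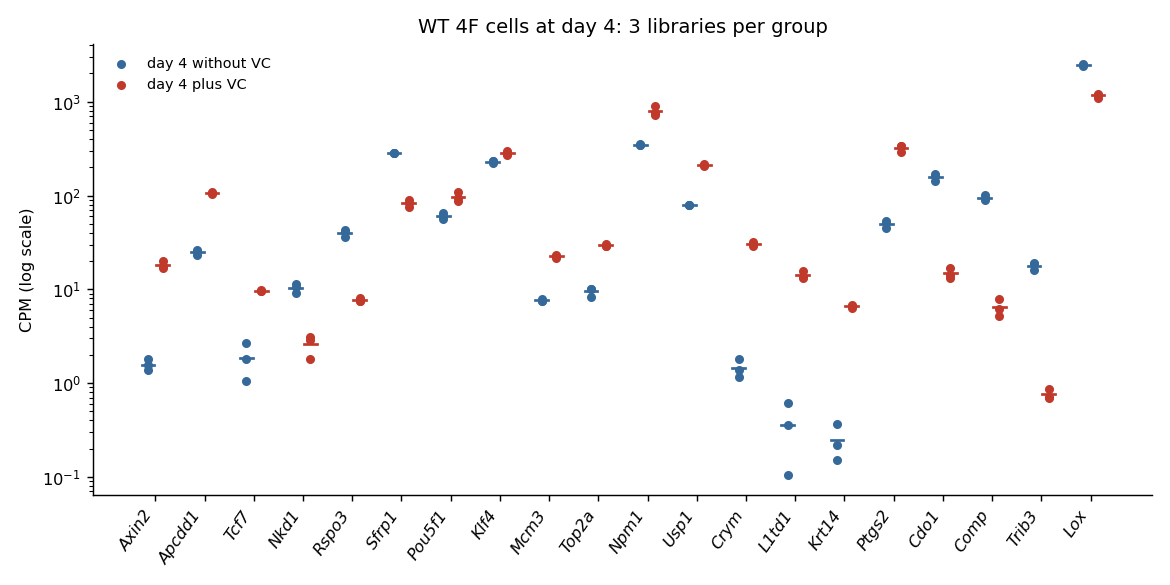
CPM on a log axis of 20 named genes in the 6 WT day 4 libraries, 1 point per library and a bar at each group mean, blue without VC and red with VC. Axin2, Crym and L1td1 stand far higher with VC and Comp, Cdo1 and Trib3 far lower, and Klf4 is separated by a small gap (221 to 235 against 273 to 297 CPM).

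Reads of all 4 reprogramming factors were higher with VC at day 4, by less than 2-fold in each, and 3 of the 4 passed the test (75.0% against 12% of all genes). Myc read 173, 178 and 162 CPM without VC and 238, 289 and 254 CPM with VC (log2 fold change 0.61, SE 0.11, adjusted p = 4.03e-05). Sox2 read 86.8, 75.2 and 89.3 CPM against 149, 126 and 119 CPM (log2 fold change 0.65, adjusted p = 0.0216). Pou5f1, the Oct4 gene, read 59.9, 56.0 and 65.8 CPM against 108, 88.3 and 93.3 CPM (log2 fold change 0.67, adjusted p = 0.0469). In these 3 genes the groups did not overlap. Klf4 read 232, 221 and 235 CPM against 297, 278 and 273 CPM, also without overlap, but did not pass the test (log2 fold change 0.30, adjusted p = 0.253). Without replicate 2 of the control group or replicate 1 of the VC group only 1 of the 4 passed (Myc), and the Pou5f1 call was lost when any library was left out and in DESeq2. Without doxycycline Pou5f1 averaged 1.96 CPM.

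Few pluripotency genes were measurable at day 4. Of 30 listed, 11 were tested, 3 rose and 2 fell (27.3% and 18.2%, against 12% and 10.4% of all genes). Over the alternatives 0 to 4 rose and 2 fell. L1td1 (ENSMUSG00000087166, GRCm39 chromosome 4, 98614971 to 98626717, plus strand), an RNA-binding protein of pluripotent cells, read 0.358, 0.106 and 0.607 CPM without VC and 13.5, 15.5 and 13.2 CPM with VC. Its 7, 2 and 11 reads without VC set the precision of the 39.4-fold rise (log2 fold change 5.28, SE 0.31, adjusted p = 3.03e-13). It had no reads at day 0 in either group, rose from a mean of 0.211 to 5.51 CPM at day 2, and went from 16.2 to 223 CPM in D/KO cells. Gdf3, a growth factor of pluripotent cells, had 1, 0 and 0 reads without VC and 8, 6 and 13 with VC. Klf2, a Krüppel-like factor of naive pluripotency that other cells also make, fell from 21.4, 21.7 and 20.2 to 5.46, 6.03 and 6.51 CPM (log2 fold change -1.81, adjusted p = 2.08e-08). Nanog had at most 1 read in a library, and Zfp42, Lin28a and Sall4 had none. At this depth no change could be detected in them.

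Some epithelial genes rose and few fell. Of 35 junction and MET (mesenchymal-to-epithelial transition) genes, 16 were tested, 5 rose and 1 fell (31.2% and 6.25%, against 12% and 10.4% of all genes, median 0.21), with 2 to 5 higher and 0 to 1 lower over the alternatives. Pkp1, a desmosomal plakophilin, read 4.86, 2.07 and 4.47 CPM without VC and 18.5, 23.6 and 19.6 CPM with VC (log2 fold change 2.44, adjusted p = 2.45e-10). Dsp, which links desmosomes to keratin filaments, read 42.7, 38.6 and 39.5 against 73.5, 54.1 and 63.4 CPM (log2 fold change 0.66, adjusted p = 0.00404). Neither pair of groups overlapped. Cldn1, a tight junction claudin, fell from 14.4, 12.6 and 13.3 to 3.25, 3.79 and 4.46 CPM (log2 fold change -1.80).

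Keratins were called at about the share of all genes: 15 of 21 were tested, 2 rose and 1 fell (13.3% and 6.67%). Krt14, a keratin of basal epidermis, had 3, 7 and 4 reads without VC (0.153, 0.371 and 0.221 CPM) and read 6.86, 6.25 and 6.67 CPM with VC (log2 fold change 4.69, SE 0.43, adjusted p = 4.79e-10). The second rise, Krt1, rested on 1, 0 and 2 reads against 8, 7 and 8, and was lost when any of 5 single libraries was left out. Krt19, a keratin of simple epithelia, fell from 13.8, 10.9 and 12.9 to 5.46, 4.28 and 4.09 CPM (log2 fold change -1.44, SE 0.21, adjusted p = 2.88e-06). Its fall was -2.30 at day 0 and -2.41 at day 2, whereas in D/KO cells it rose by 3.07, from a mean of 9.51 to 80.0 CPM, and the difference between the lines passed the test (adjusted p = 3.28e-13). Beside these genes, the summed level of 10 epidermal keratinocyte markers was 22.8 to 29.4 CPM without VC and 73.2 to 83.2 CPM with VC. Of the 7 tested markers 4 were higher (1 to 4 over the alternatives, beside 12% of all genes) and none lower. Most of that sum was Itga6, an integrin many cell types use (16.7, 22.9 and 20.9 against 56.5, 61.9 and 65.7 CPM), and Krt15, Dsg3 and Dsc3 were at 0 in all 6 libraries. The part of such cells in the epithelial changes was not tested.

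Enzymes that use ascorbic acid as a cofactor were not raised as a group at the RNA level. Of 12 collagen hydroxylases, all tested, 3 fell and none rose (25.0% lower against 10.4% of all genes, median -0.13). P4ha1, a catalytic subunit of collagen prolyl 4-hydroxylase, read 439, 406 and 413 CPM without VC and 283, 274 and 280 CPM with VC (log2 fold change -0.59, adjusted p = 4.91e-06). P4ha2, its paralog, read 107, 92.6 and 97.9 against 46.2, 50.9 and 42.2 CPM (log2 fold change -1.10, adjusted p = 1.66e-07). P3h2, a prolyl 3-hydroxylase that overlaps Gm4524, went from 12 to 14.4 CPM down to 1.87 to 4.36 CPM (log2 fold change -2.12). In all 3 the groups stood apart. The lysyl hydroxylase Plod1 read 278, 264 and 278 against 355, 333 and 297 CPM and did not pass (log2 fold change 0.26, adjusted p = 0.0732). P4hb, the shared β subunit, was at -0.08. At day 0 the same list went the other way, with 6 higher and 2 lower (15.1% and 14.4% of all genes), and 7 of the 12 had a lower change at day 4 than at day 0, against 8.17% of all genes.

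Among 9 Tet and DNA methylation genes, 3 rose (33.3% against 12% of all genes) and none fell, and the 3 were methylation factors, not Tet genes. Uhrf1, which guides DNA methyltransferase to newly copied DNA, went from 2.10, 1.59 and 2.65 to 5.93, 5.82 and 5.06 CPM (log2 fold change 1.41, adjusted p = 9.39e-07). Dnmt1, the maintenance methyltransferase, was higher by 0.40 and Dnmt3l, a cofactor of the de novo enzymes, by 1.47. Without any 1 of 3 libraries (control replicates 1 and 3, VC replicate 1) only Uhrf1 passed. Of 19 JmjC demethylases and related oxygenases 2 rose and 1 fell (shares below the 12% and 10.4% of all genes), namely Riox2 (0.80, overlapping Crybg3), Riox1 (0.63, lost without VC replicate 3) and Kdm3b (-0.36, lost without any of 5 single libraries). The glucose and dehydroascorbate transporter Slc2a3 read 11.5, 11.4 and 12.1 CPM without VC and 25.9, 31.6 and 33.1 CPM with VC (log2 fold change 1.37, adjusted p = 5.60e-08), the only call among 4 such transporters.

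The list of HIF (hypoxia-inducible factor) regulators, among them its hydroxylases, and hypoxia targets had more falls than rises in these cells, which grew at 3% oxygen. Of 24 genes, all tested, 9 fell and 3 rose (37.5% lower against 10.4% of all genes, median -0.20). Ndrg1, a stress-induced cytoplasmic protein, read 150, 156 and 167 CPM without VC and 55.9, 60.0 and 54.9 CPM with VC (log2 fold change -1.47, adjusted p = 2.02e-11). Adm, the vasodilator peptide adrenomedullin, read 159, 192 and 176 against 59.3, 76.0 and 75.9 CPM (log2 fold change -1.32). Bnip3, a mitophagy receptor, and Egln1, the main HIF prolyl hydroxylase, fell by 0.78 and 0.64 on the log2 scale. Egln3, another HIF hydroxylase, rose from 9.82, 9.75 and 8.17 to 22.7, 20.6 and 17.2 CPM (log2 fold change 1.12). At days 0 and 2, 11 and 13 of the list fell with VC (14.4% and 13.0% of all genes). Of 20 glycolysis enzymes 2 rose at day 4, a share below the 12% of all genes (Hk2 by 0.50 and Gpi1 by 0.45), a count that ran from 0 without VC replicate 1 to 6 in a fit of only the 6 libraries, and 15 of 20 rose in D/KO cells (16.8% of all genes).

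Genes of cell division rose together, and mitosis genes had the highest share of calls among the pathway lists. Of 34 genes of mitosis and the spindle, all tested, 33 rose and none fell (median log2 fold change 1.70), and of 38 genes of DNA replication and S phase 24 rose and none fell (median 0.67). These were 97.1% and 63.2%, against 12% of all tested genes. Ccna2, cyclin A2, read 1.53, 1.22 and 1.38 CPM without VC and 7.44, 5.43 and 7.53 CPM with VC (log2 fold change 2.30, SE 0.20, adjusted p = 4.46e-11). Top2a, the DNA topoisomerase of dividing cells, read 10.0, 10.2 and 8.34 against 28.9, 29.0 and 30.3 CPM (log2 fold change 1.62). Mcm3, a subunit of the replicative helicase, read 7.93, 7.58 and 7.56 against 22.7, 21.5 and 23.1 CPM (log2 fold change 1.54). In none of the 3 did a library with VC reach down to the control range. Ube2c, an E2 enzyme of the anaphase-promoting complex, rose by 2.49 and Mki67, the Ki-67 proliferation antigen, by 2.17.

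The rise of mitosis genes was also present on the other days and in the other line: 34 of 34 rose with VC at day 0 (median 1.91), 22 at day 2 (0.74) and 33 in D/KO cells (1.54), against 15.1%, 13.5% and 16.8% of all genes. No gene of the list had a called difference between day 4 and day 0, and 9 had a larger rise at day 4 than at day 2, against 2.95% of all genes. In day 2 against day 0 without VC, which shares no library with the day 4 comparison, none of the 34 was called in either direction, where 6.26% of all genes rose and 4.30% fell. Inhibitors of the cycle and p53 targets did not move together, with 2 of 26 higher (7.69% against 12% of all genes; 4 genes without VC replicate 1) and 5 lower (19.2% against 10.4%). Cdkn1a (p21), which overlaps Dino, rose from 482, 467 and 499 to 610, 665 and 636 CPM (log2 fold change 0.40, adjusted p = 0.00244), and Cdkn1b (p27) fell from 66.1, 66.3 and 66.8 to 48.4, 42.6 and 42.2 CPM (log2 fold change -0.58, adjusted p = 0.000509).

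Ribosome biogenesis genes rose widely at day 4, and fewer of them rose at day 0. Of 26 nucleolar and ribosome assembly factors 20 rose and none fell (76.9% against 12%, median 0.53). Npm1, nucleophosmin, read 352, 349 and 343 CPM without VC and 893, 721 and 762 CPM with VC (log2 fold change 1.19, SE 0.11, adjusted p = 1.56e-10). Nop56, a box C/D particle protein, read 30.3, 35.5 and 31.5 against 62.8, 71.8 and 61.6 CPM (log2 fold change 1.01), and Fbl, the rRNA methyltransferase fibrillarin, 35.7, 32.7 and 30.4 against 57.9, 65.7 and 56.2 CPM (log2 fold change 0.86). No groups overlapped in these genes. At day 0 8 of the 26 rose (30.8% against 15.1% of all genes, median 0.066), Npm1 was at -0.0042 there, and 10 of the 26 rose more at day 4 than at day 0 (38.5% against 7.16% of all genes). In D/KO cells 22 rose (16.8% of all genes, median 0.69).

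Among DNA repair genes the smallest p-value belonged to Usp1. Usp1 (ENSMUSG00000028560, GRCm39 chromosome 4, 98812047 to 98823780, plus strand), the deubiquitinase of FANCD2 and PCNA, read 78.3, 79.5 and 78.5 CPM without VC and 210, 204 and 219 CPM with VC. The 3 control libraries were nearly equal and the groups were far apart (log2 fold change 1.42, SE 0.10, adjusted p = 9.86e-14). Its change was 0.077 at day 0, 0.63 at day 2 and 0.60 in D/KO cells, and each differed from day 4 in WT cells (adjusted p = 4.53e-09, 0.000263 and 4.22e-05). Wdr48, its activating partner, which overlaps Gorasp1, fell from 49.6, 43.1 and 45.3 to 35.1, 33.8 and 33.1 CPM (log2 fold change -0.43, adjusted p = 0.00299).

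Of 34 homologous recombination and Fanconi genes 11 rose (32.4% against 12% of all genes) and 1 fell (Wdr48), 7 rising without control replicate 1 or 2. Brca1 went from 1.48, 0.954 and 1.21 to 6.92, 4.11 and 3.71 CPM (log2 fold change 2.00), and Fancd2, a Fanconi protein that USP1 acts on, from 2.10, 2.01 and 1.77 to 4.42, 4.55 and 5.33 CPM (log2 fold change 1.28). Of 14 end-joining genes 4 rose (28.6%), among them Xrcc6 and Xrcc5, the Ku subunits, by 0.65 and 0.46. Excision and mismatch repair counted 8 of 34 higher (23.5%) and none lower, 5 without control replicate 1 or 2 and 4 without VC replicate 1. Ung, which removes uracil from DNA, rose by 1.87, and Neil3, a glycosylase of dividing cells, had 0, 1 and 1 reads without VC and 10, 15 and 27 with VC.

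**Figure D3:**
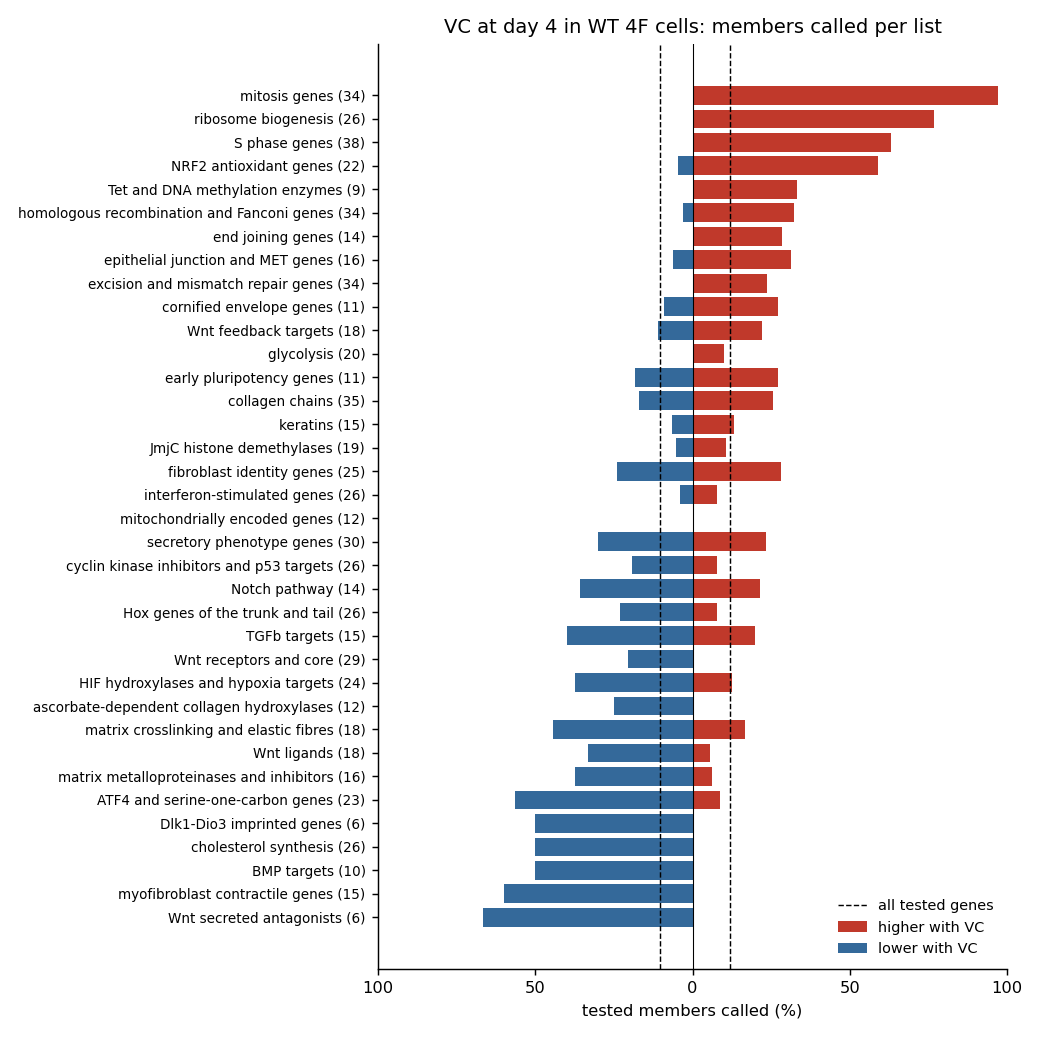
Share of tested members (percent) called higher or lower with VC in WT cells at day 4 for each pathway list with at least 6 tested members (cell type marker lists are not drawn), with dashed lines at the shares over all 15832 tested genes. Mitosis (97.1% higher), ribosome biogenesis (76.9%) and S phase (63.2%) stand highest above the 12% line, and the Wnt secreted antagonists (66.7%), the myofibroblast genes (60.0%) and the ATF4 list (56.5%) reach farthest on the lower side.

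Most contractile genes of the myofibroblast list fell. Of 15 myofibroblast genes 9 fell and none rose (60.0% lower against 10.4%, median -0.61). Actn1, an actin crosslinker, read 593, 562 and 592 CPM without VC and 335, 292 and 313 CPM with VC (log2 fold change -0.89, adjusted p = 2.76e-08). Vcl, vinculin of focal adhesions, read 370, 298 and 304 against 144, 141 and 141 CPM (log2 fold change -1.19), and Tpm1, tropomyosin, 286, 265 and 250 against 154, 177 and 173 CPM (log2 fold change -0.66). The groups were separate in all 3. Acta2, smooth muscle actin, fell by 0.57 (adjusted p = 0.0112), a call lost without control replicate 1. At day 0 2 were higher and 3 lower, near the shares of all genes (15.1% and 14.4%), and 7 of 15 had a lower change at day 4 than at day 0 (8.17% of all genes). In D/KO cells 14 fell (17.7% of all genes fell there), and 6 fell less in WT than in D/KO cells (5.88% of all genes), Acta2 among them (-2.67 in D/KO, adjusted p of the difference 7.48e-08). Beside this list, 10 smooth muscle and pericyte markers summed to 186 to 205 CPM without VC and 149 to 169 CPM with VC, 3 of 9 tested being lower, and Kcnj8 and Higd1b were at 0. Their part in the result was not tested.

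TGFβ-responsive genes fell more often than they rose, with 6 of 15 lower and 3 higher (beside 10.4% and 12% of all genes), 1 higher without VC replicate 2 or 3. Cilp, a matrix protein, read 2956, 2985 and 2956 CPM without VC and 1465, 1191 and 1239 CPM with VC (log2 fold change -1.19, adjusted p = 1.38e-06), although it rose by 1.00 at day 0 (adjusted p of the difference 2.07e-08). Fn1, fibronectin, read 6337, 6670 and 6598 against 3973, 3188 and 3475 CPM (log2 fold change -0.88), and Ltbp2, a latent TGFβ binding protein family member, 990, 959 and 995 against 521, 420 and 414 CPM (log2 fold change -1.12). Every library with VC was below every control library in these genes. Tgfbi rose by 0.39. Of 10 BMP targets 5 fell (50.0%) and none rose, among them Id4, an inhibitor of basic helix-loop-helix factors (34.1, 29.5 and 28.9 against 9.47, 12.5 and 9.47 CPM, log2 fold change -1.56, adjusted p = 1.23e-07).

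Collagen chains rose and fell. Of 43 chains 35 were tested, 9 rose and 6 fell (25.7% and 17.1%, against 12% and 10.4% of all genes, median 0.11), the rises numbering 5, near the share of all genes, without control replicate 2. Col1a1, the main fibrillar chain, read 12251, 11075 and 11747 CPM without VC and 22859, 18693 and 17959 CPM with VC (log2 fold change 0.76, SE 0.16, adjusted p = 0.000372). The transgene of this line sits in the Col1a1 locus. The rise was 2.29 at day 0, larger than at day 4 (adjusted p = 5.90e-06), and the change was -0.04 in D/KO cells. Col4a2, a basement membrane chain, read 1198, 1093 and 1185 against 2960, 2446 and 2417 CPM (log2 fold change 1.17, adjusted p = 1.08e-09), and Col15a1, another basement membrane collagen, 120, 116 and 114 against 281, 224 and 241 CPM (log2 fold change 1.09). Both groups of libraries were apart in each. Col15a1 fell with VC at day 0 (-1.31) and in D/KO cells (-1.60), and both differences passed the test (adjusted p = 7.37e-11 and 5.60e-12). Col8a2 fell from 12.3, 11.4 and 12.8 to 1.16, 1.10 and 0.914 CPM (log2 fold change -3.51), and Col28a1 and Col6a5 fell by 2.79 and 2.58 on the log2 scale.

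Crosslinking and elastic fibre genes counted 8 of 18 lower and 3 higher (44.4% and 16.7%, against 10.4% and 12% of all genes, median -0.21), where 9 were higher and 2 lower at day 0 (15.1% and 14.4% of all genes). Lox, the lysyl oxidase that crosslinks collagen and elastin, read 2472, 2493 and 2404 CPM without VC and 1217, 1101 and 1183 CPM with VC (log2 fold change -1.07, SE 0.12, adjusted p = 2.07e-08). Efemp2, which helps lay down elastic fibres and overlaps Mus81, read 908, 869 and 866 against 478, 492 and 460 CPM (log2 fold change -0.89), and was higher with VC at day 0 (0.35, adjusted p of the difference 1.96e-08). Mfap4, a microfibril-associated protein, rose by 1.59. Matrix proteases and their inhibitors counted 6 of 16 lower (37.5%) and 1 higher (6.25%), Mmp13, a collagenase, falling from 21.1, 25.0 and 22.6 to 6.51, 5.43 and 7.05 CPM (log2 fold change -1.85, adjusted p = 1.17e-08) and Mmp2, a gelatinase, rising by 0.39, a call lost without control replicate 2 or VC replicate 1.

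Fibroblast identity genes moved in both directions. Of 25, 7 rose and 6 fell (28.0% and 24.0%, against 12% and 10.4% of all genes, median 0.02), counts that were 4 higher without control replicate 2 or 3, 2 lower without control replicate 1, and 3 lower without control replicate 2 or VC replicate 1 or 2. Fap, a fibroblast surface protease, read 8.60, 8.00 and 6.57 CPM without VC and 26.4, 28.1 and 28.6 CPM with VC (log2 fold change 1.84, adjusted p = 2.37e-10). Twist1, a mesenchymal transcription factor, read 119, 110 and 122 against 208, 253 and 238 CPM (log2 fold change 0.99), and Cd34 364, 357 and 353 against 554, 579 and 581 CPM (log2 fold change 0.67). Pdgfra, the PDGF receptor of fibroblasts, fell from 748, 741 and 720 to 513, 477 and 530 CPM (log2 fold change -0.54). The groups were distinct in all 4. The summed level of 10 fibroblast markers was 45956 to 48216 CPM without VC and 60940 to 72058 CPM with VC, with 7 markers higher (3 without control replicate 2, 4 without control replicate 3 or VC replicate 1) and 2 lower. All 10 markers of the labelled cell type were detected in both groups, and their part in the changes was not tested.

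Secreted factors changed in both directions. Of 37 genes of the secretory phenotype 30 were tested, 7 rose and 9 fell (23.3% and 30.0%, against 12% and 10.4% of all genes). Ptgs2, cyclooxygenase 2, read 53.9, 44.8 and 50.8 CPM without VC and 289, 335 and 334 CPM with VC (log2 fold change 2.68, SE 0.18, adjusted p = 1.15e-13), and its change at day 0 was 0.43 (adjusted p of the difference 1.97e-08). Cxcl14, a chemokine of skin, read 242, 217 and 226 against 476, 530 and 535 CPM (log2 fold change 1.17). In contrast Cxcl12, a chemokine of stromal cells, fell from 786, 846 and 790 to 270, 300 and 307 CPM (log2 fold change -1.47), Igfbp3, an IGF carrier, from 1547, 1670 and 1595 to 567, 674 and 666 CPM (log2 fold change -1.34), and Hgf from 18.1, 16.9 and 20.6 to 5.46, 4.72 and 4.68 CPM (log2 fold change -1.90). None of these 5 genes had overlapping groups.

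Cholesterol synthesis genes fell, where they were called, at day 4. Of 26 genes 13 fell and none rose (50.0% against 10.4%, median -0.35), and 20 fell in a fit of only the 6 libraries. Msmo1, a sterol oxidase, read 62.0, 64.2 and 64.1 CPM without VC and 32.0, 40.7 and 40.1 CPM with VC (log2 fold change -0.75, adjusted p = 8.67e-06). Srebf2, the transcription factor of the pathway, read 338, 304 and 321 against 264, 259 and 255 CPM, a fall of 0.31 on the log2 scale. The ranges were separate in both. At day 2 the list was 8 higher and 2 lower with VC (13.5% and 13.0% of all genes), and 10 genes had a lower change at day 4 than at day 2 (3.18% of all genes). Without VC, 18 of the 26 had risen by day 2 of doxycycline (6.26% of all genes).

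Interferon-stimulated genes separated day 4 from day 0. At day 0 all 26 tested members rose with VC (median 2.35), where 15.1% of all genes rose. At day 4 2 rose and 1 fell (7.69% and 3.85%, below the 12% and 10.4% of all genes), with a median of 0.12 that ran from -0.042 to 0.56 over the alternatives. The change was smaller at day 4 than at day 0 in 15 of the 26, against 8.17% of all genes. Ifit3, an interferon-induced antiviral protein, read 11.5, 12.7 and 17.4 CPM without VC at day 4 and 7.96, 7.30 and 8.66 CPM with VC, and the groups were apart but did not pass (log2 fold change -0.80, adjusted p = 0.282). Its change at day 0 was 2.77, with day 0 libraries plus VC spread from 32.6 to 188 CPM, so the day 0 level was uneven among replicates. Zbp1, a nucleic acid sensor, rose at day 4 from 7.06, 8.05 and 9.99 to 19, 17.7 and 22.1 CPM (log2 fold change 1.23, adjusted p = 0.00224). The other rise, Oas2, was lost without control replicate 1 or 2 or VC replicate 3, and the fall, Ifit2, without any of 4 single libraries, while 7 genes rose when no filter on low counts was used. Oasl1 and Oas1a, whose fitted changes were the highest of the list, had 0, 0 and 1 reads each without VC and 3 to 11 with VC and did not pass.

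**Figure D4:**
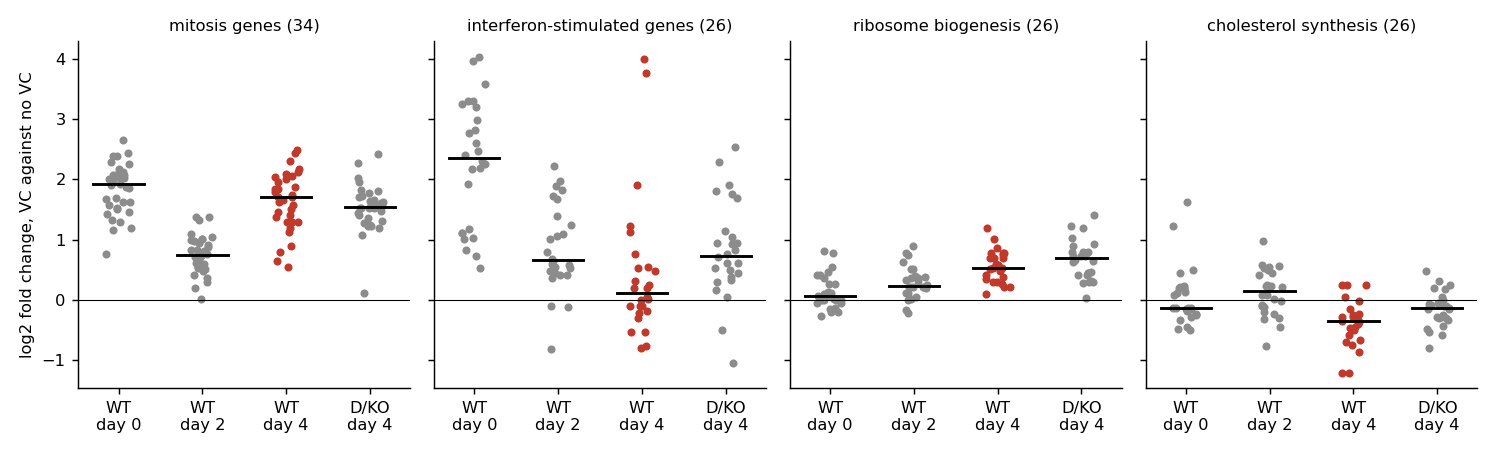
Log2 fold change with VC for each gene of 4 lists (mitosis, 34 genes; interferon-stimulated, 26; ribosome biogenesis, 26; cholesterol synthesis, 26) in WT cells at days 0, 2 and 4 and in D/KO cells at day 4, 1 point per gene (red for WT day 4, grey for the others) and a bar at the median. Mitosis genes stay above 0 in each comparison (medians 1.91, 0.74, 1.70 and 1.54), and the interferon-stimulated genes drop from a median of 2.35 at day 0 to 0.12 at day 4.

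Most genes on the list of the amino acid response driven by ATF4 fell, and most on the list of the oxidant response driven by NRF2 rose. Of 23 ATF4 targets 13 fell and 2 rose (56.5% lower and 8.70% higher, against 10.4% and 12% of all genes, median -0.80). Trib3, a pseudokinase induced by amino acid and ER stress, read 15.9, 19.1 and 18.5 CPM without VC and 0.872, 0.713 and 0.699 CPM with VC (log2 fold change -4.54, SE 0.38, adjusted p = 2.42e-11). Atf5, which overlaps Nup62, read 358, 368 and 363 against 121, 123 and 117 CPM (log2 fold change -1.59). Mthfd2, a mitochondrial folate enzyme, fell from 28.2, 31.4 and 31.9 to 7.61, 11.4 and 10.1 CPM (log2 fold change -1.65). The groups were far apart in each. This group differed between the lines: in D/KO cells 10 of the 23 rose and 5 fell (43.5% and 21.7%, against 16.8% and 17.7% of all genes there), and 12 had a lower change in WT than in D/KO cells (3.35% of all genes), among them Mthfd2 (0.11 in D/KO, adjusted p of the difference 9.80e-08) and Slc7a5, an amino acid transporter (-0.78 in WT, 0.83 in D/KO, adjusted p of the difference 6.26e-08).

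Of 22 NRF2 targets 13 rose and 1 fell (59.1% higher against 12%, median 0.40). Gsta4, a glutathione transferase, read 64.0, 59.0 and 53.5 CPM without VC and 120, 126 and 129 CPM with VC (log2 fold change 1.09, adjusted p = 1.28e-06), and Cat, catalase, 106, 96.1 and 104 against 166, 166 and 159 CPM (log2 fold change 0.68). Nqo1, a quinone reductase, rose by 0.82. The groups were separate in these 3 genes. The single fall was Slc7a11, the cystine transporter, which is also on the ATF4 list (5.37, 5.14 and 5.91 against 1.05, 2.08 and 2.31 CPM, log2 fold change -1.58, adjusted p = 1.69e-05).

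Of 11 genes of the cornified envelope 3 rose and 1 fell (27.3% and 9.09%, against 12% and 10.4% of all genes). Over the alternatives 0 to 4 of these rose and 1 to 2 fell. None of 12 mitochondrially encoded genes was called (5 rose in a fit of only the 6 libraries). Other groups were mixed. Of 14 Notch genes tested 3 rose (21.4%) and 5 fell (35.7%, 3 genes without control replicate 3 or VC replicate 2), with Hes1, a target repressor, at 86.6, 79.9 and 83.7 CPM without VC and 121, 186 and 172 CPM with VC (log2 fold change 0.94) and Hey2, a related repressor, at 5.96 to 6.52 against 0.930 to 1.88 CPM (log2 fold change -2.24). Of 6 genes of the imprinted Dlk1-Dio3 region 3 fell (50.0%), Dlk1 itself from 4.09, 4.13 and 6.73 to 0.407, 0.823 and 0.430 CPM (log2 fold change -3.15, adjusted p = 7.26e-08). Of 26 trunk and tail Hox genes 6 fell (23.1%) and 2 rose (7.69%, below the share of all genes), the rises being 0 without control replicate 1 and 1 without VC replicate 2. Hoxb13, the most posterior gene of its cluster, fell from 145, 130 and 139 to 76.6, 81.5 and 88.1 CPM (log2 fold change -0.75, adjusted p = 6.80e-06).

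Several genes outside the pathway lists were among those that changed most. Crym (ENSMUSG00000030905, GRCm39 chromosome 7, 119785603 to 119801334), a thyroid hormone binding protein, went from 1.79, 1.38 and 1.16 to 29.1, 32.0 and 30.6 CPM, a 21.2-fold rise (log2 fold change 4.39, SE 0.25, adjusted p = 1.15e-15). At day 0 it averaged 0.0726 CPM without VC and 0.0653 CPM with VC, too low to read a change (log2 fold change -0.14, SE 1.2). Its change was 0.59 in D/KO cells (adjusted p of the difference 5.36e-11). Aldh3a1, an aldehyde dehydrogenase, read 170, 145 and 151 against 1198, 1190 and 1115 CPM, a 7.53-fold rise (log2 fold change 2.91, SE 0.18, adjusted p = 7.42e-15). Lbp, which binds bacterial lipopolysaccharide, read 117, 117 and 121 against 496, 573 and 553 CPM (log2 fold change 2.19), and Dpp4, a surface peptidase of fibroblast subsets, 5.17, 5.99 and 5.19 against 49.6, 40.8 and 42.9 CPM (log2 fold change 3.03). Ramp2, a receptor activity-modifying protein, rose by 2.80 and was at -0.36 at day 0. In all of these the lowest library with VC exceeded the highest without it, which the naming rule required.

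Several falls were of similar size. Cdo1 (ENSMUSG00000033022, GRCm39 chromosome 18, 46846260 to 46861462), cysteine dioxygenase, read 160, 169 and 142 CPM without VC and 14.2, 13.2 and 17.0 CPM with VC, 10.6-fold lower (log2 fold change -3.40, SE 0.13, adjusted p = 1.10e-20). Ccdc3, a secreted protein, read 185, 168 and 170 against 13.7, 11.9 and 15.8 CPM, 12.7-fold lower (log2 fold change -3.66, adjusted p = 6.26e-20). Comp, a cartilage and tendon matrix protein, read 94.5, 88.7 and 102 against 6.22, 7.85 and 5.22 CPM (log2 fold change -3.88, adjusted p = 9.04e-17). The gaps exceeded the spread of either group many times over. Sema3f, a secreted semaphorin, read 81.5, 75.0 and 74.7 against 13.3, 12.9 and 13.3 CPM (log2 fold change -2.55), and Trim66 12.1, 19.1 and 13.9 against 0.814, 0.768 and 0.215 CPM (log2 fold change -4.65). Serpine2, a protease inhibitor, fell from 314, 323 and 298 to 97.9, 82.6 and 90.4 CPM (log2 fold change -1.79, adjusted p = 4.97e-16), with 0.53 at day 0 and 0.12 at day 2. Comp is itself 1 of 10 chondrocyte and bone markers, whose summed level, Comp included, was 169 to 181 CPM without VC and 61.2 to 67.4 CPM with VC, with 2 of 7 tested lower (Comp and Sox9), 1 higher (none without control replicate 2 or VC replicate 1) and Acan at 0. Of all tested genes 10.4% were lower and 12% higher. The part of these markers in the result was not tested.

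**Figure D5:**
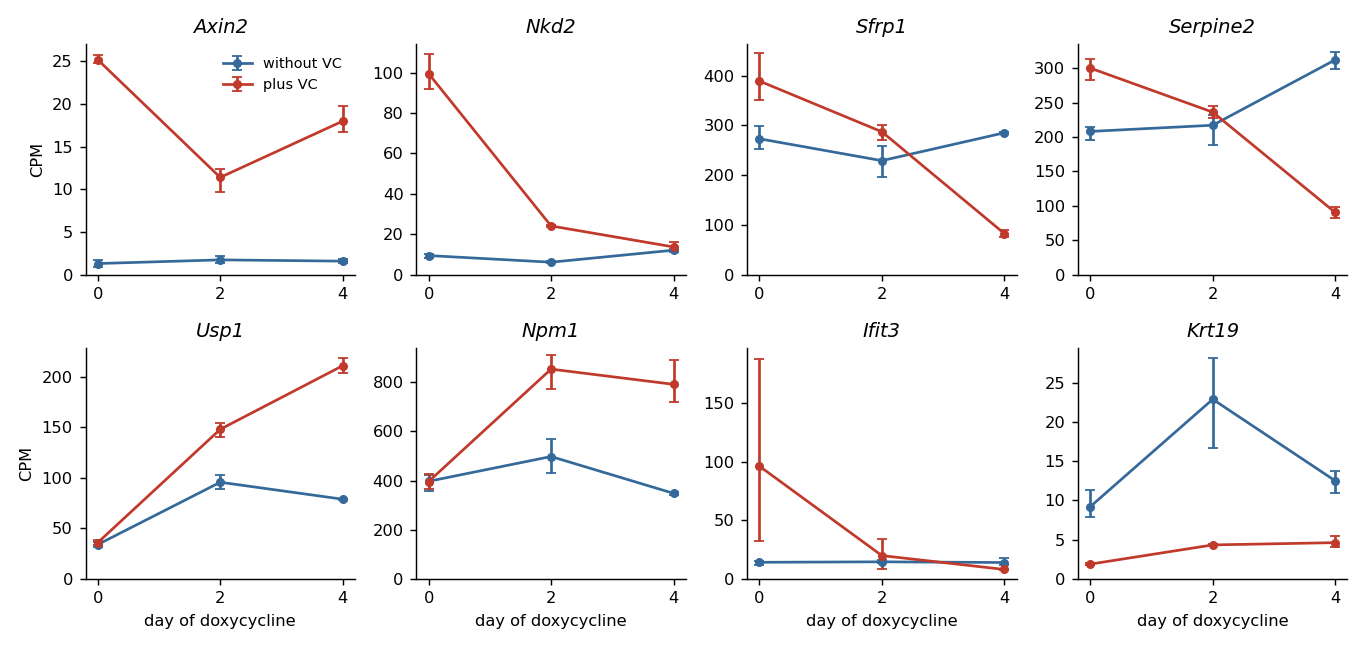
Mean CPM in WT cells at days 0, 2 and 4 without and with VC for 8 genes, with bars from the lowest to the highest of 3 libraries. Axin2 is higher with VC on all 3 days, Usp1 and Npm1 separate from the control by day 4 but not at day 0, Sfrp1 and Serpine2 are lower with VC at day 4 and not on the earlier days, Ifit3 and Nkd2 respond most at day 0, and Krt19 is lower with VC on all 3 days.

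The genes that changed at day 4 were followed into comparisons that share no library with it. Of the 1897 that rose, 755 (39.8%) also rose with VC at day 0 and 105 (5.54%) fell there, while 1037 (54.7%) were not called. At day 2, 992 (52.3%) rose and 33 (1.74%) fell, and in D/KO cells at day 4, 1076 (56.7%) rose and 95 (5.01%) fell. These are 31.7%, 46.4% and 40.5% of the genes that rose in each of those comparisons, which called 15.1%, 13.5% and 16.8% of all genes higher and 29.4%, 26.6% and 34.5% in either direction. Of the 1645 that fell, 746 (45.3%) fell at day 0, 827 (50.3%) at day 2 and 1108 (67.4%) in D/KO cells (32.8%, 40.0% and 39.5% of the falls there, and 14.4%, 13.0% and 17.7% of all genes), and 145 (8.81%) rose at day 0. All 3 comparisons had the same call for 347 of the rises (18.3%) and 409 of the falls (24.9%).

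Between day 0 and day 2 without VC, which differ in doxycycline and in time, 10.6% of all genes changed. Of 991 genes that rose between day 0 and day 2 without VC, 35.1% rose with VC at day 4 and 13.8% fell, and of 681 that fell, 39.2% fell and 8.37% rose. Seen from the day 4 side, 348 of the 1897 rises (18.3%) and 267 of the 1645 falls (16.2%) had moved in the same direction by day 2. Differences in the VC change itself were called for 2427 genes between day 4 and day 0 (15.3%), 971 between day 4 and day 2 (6.13%; 467 higher and 504 lower, down to 206 and 274 without VC replicate 2) and 1461 between WT and D/KO cells (9.23%). Among the 3542 genes called at day 4, 1130 (31.9%), 506 (14.3%) and 730 (20.6%) were called different from day 0, day 2 and D/KO cells, a description only, as these tests use the day 4 libraries again.

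Markers of other cell types were measured in both groups, and their called counts stand beside 12% higher and 10.4% lower of all tested genes. Macrophage and leukocyte markers summed to 77.2 to 93.2 CPM without VC and 72.5 to 78.5 CPM with VC (1 higher and 2 lower of 10 tested), melanocyte markers to 21.9 to 22.6 and 13.0 to 14.7 CPM with Tyr, Tyrp1 and Mlana at 0 (1 of 4 tested lower), and Schwann cell markers to 14.6 to 16.4 and 9.79 to 15 CPM (2 of 9 tested lower). Endothelial markers summed to 96.2 to 96.4 and 98.9 to 117 CPM, with Kdr at 0 and 9 of 10 markers below 1 CPM in every library. Adipocyte markers summed to 153 to 168 and 121 to 134 CPM, with Lep, Cfd and Retn at 0 (2 of 4 tested lower), and skeletal muscle markers went from 9.83 to 15.7 CPM to 24.0 to 28.8 CPM, with Myod1, Myog and Pax7 at 0. Of the 4 muscle markers tested Chrna1 rose, which made up the rise of the sum, and Acta1 fell by 1.03 on the log2 scale, a call lost without any of 4 single libraries. The part of such cells in the changes at day 4 was not tested.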

How the data were processed

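RNA was sequenced from polyA libraries as paired reads on an Illumina NovaSeq. Per the labels and the study's methods, reads were trimmed with Trim Galore, aligned to GRCm39 with HISAT2 and summarised per gene with featureCounts, and the table of raw read counts was deposited by the authors without normalization. Tool versions and strand setting are not given in the sources used here, so overlapping genes are named as such.

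Counts of all 36 reprogramming libraries (12 groups of 3) were fitted together in edgeR 4.0.16 (R 4.3.3). Genes were kept by filterByExpr (minimum count 10, total 15), which left 15832 of 56980. Library sizes were TMM-scaled and each contrast was tested two-sided with the quasi-likelihood F-test at a Benjamini-Hochberg adjusted p under 0.05. A prior count of 2 was used for the log2 CPM of the principal component analysis (500 most variable genes). Fold changes came from the quasi-likelihood fit at its default setting. Symbols came from GENCODE M39, in which 98.69% of identifiers were found, and GRCm39 coordinates from the gene models of the deposited count table. The procedure was tested on simulated counts with known changes.

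The comparison, its members and the 48 gene lists (937 of 940 entries matched) were chosen with earlier results of these data known. Genes named in the text were the 10 largest rises and falls with no overlap and at least 10 CPM, the 5 smallest p-values per direction, all reprogramming factors, Wnt feedback targets and collagen hydroxylases, up to 3 called genes per direction in each other list, and the 5 smallest p-values of each test of a difference. Of these the most informative were given, and further list members were named after their values were seen. Reads of the 6 libraries held 16538374 to 18187048 counts. Alternatives were DESeq2 1.42.0, other scaling, filters and sample sets, a 2-fold minimum and leaving out each library. The series' other count table was not used here.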

Additional observations from a re-analysis of the deposited data

Results flagged for a closer look

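The results here differed between groups by a test of the difference itself (edgeR's quasi-likelihood test, Benjamini-Hochberg adjusted), each being a change with VC in WT cells at day 4 set against the same change elsewhere. Against day 0 the change differed for 2427 genes. Aldh1a3, a retinaldehyde dehydrogenase, fell at day 0 from a mean of 65.2 to 1.53 CPM but stood at 85.9 and 73.7 CPM at day 4, a log2 difference of 5.19. Tenm4, a teneurin, went from 28.6 to 1.17 CPM at day 0 and from 24.0 to 34.5 CPM at day 4, a difference of 5.13. Cd34 went from 124 to 33.2 CPM at day 0 and from 358 to 571 CPM at day 4 (2.58). Serpina3n, a serine protease inhibitor, went from 407 to 936 CPM at day 0 and from 400 to 214 CPM at day 4 (-2.11), and Serpine2 differed by -2.31.

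Against day 2 the change differed for 971 genes (467 higher and 504 lower, down to 206 and 274 without day 4 plus VC replicate 2). Comp went from 62.9 to 40.0 CPM at day 2 and from 95.0 to 6.43 CPM at day 4, a log2 difference of -3.23. Fmod, a collagen-binding proteoglycan, went from 496 to 386 CPM at day 2 and from 483 to 85.6 CPM at day 4 (-2.13). Sfrp1, Serpine2 and Serpina3n differed by -2.12, -1.91 and -1.55.

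Against D/KO cells the change differed for 1461 genes. Penk, the enkephalin precursor, went from 16.5 to 93.7 CPM in WT and from 127 to 33.8 CPM in D/KO cells, a log2 difference of 4.42. Olfml2a, a matrix protein, went from 43.4 to 85.1 CPM and from 63.1 to 17.5 CPM (2.82), and Spon2, another matrix protein, from 79.0 to 118 CPM and from 101 to 26.2 CPM (2.53). Avil, an actin-binding protein that overlaps Tsfm, went from 3.74 to 1.98 CPM and from 8.53 to 77.6 CPM (-4.11), and Krt19 differed by -4.51.

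Among the lists, the difference from day 0 was called for 15 of 26 interferon-stimulated genes, 8 of 26 cholesterol synthesis genes, 6 of 23 ATF4 and serine-one-carbon genes and 15 of 35 collagen chains, beside 15.3% of all genes. The difference from D/KO cells was called for 2, 2, 12 and 16 genes of these lists, beside 9.23% of all genes, so the interferon and cholesterol counts lie below that share.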

How the results depend on the processing

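With a minimum 2-fold change the calls at day 4 numbered 639 higher and 549 lower. The same minimum left 717 and 802 at day 0, 479 and 717 at day 2, 912 and 928 in D/KO cells, and 307 and 179 between day 2 and day 0 without VC. Of differences in the VC change it left 517 higher and 475 lower against day 0, 234 and 130 against day 2, and 432 and 292 against D/KO cells.

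When only the groups compared were fitted, 2384 genes rose and 2593 fell at day 4, 1855 had a higher change at day 4 than at day 0 and 710 than at day 2 (783 with the 18 WT libraries). DESeq2 gave 783 genes with a lower change at day 4 than at day 2. The distance ratio was 0.843 over 2000 genes and 0.884 over all tested genes. The causes were not tested.

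Leaving out 1 library gave 1464 to 1673 rises and 1332 to 1422 falls at day 4. It gave 412 to 838 falls between day 2 and day 0, fewest without day 2 replicate 2 and 442 without day 0 replicate 1, and against day 2 it gave 206 to 575 higher and 274 to 663 lower changes, fewest without day 4 plus VC replicate 2. These last counts also fell by more than 1.5 times without day 2 replicate 2, day 2 plus VC replicate 3, day 4 replicate 1 and day 4 plus VC replicate 3.

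Of 186 named genes called at day 4, 31 lost the call under at least 1 alternative (100 of 2364 values) and none changed sign. No paired analysis was possible because the labels give no replicate number that pairs the groups, and the numbers used were given in accession order. With 3 libraries a group from 1 line, genes with few reads, such as Nanog, allow no statement.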

Other observations

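Of 1303 long non-coding RNAs tested, 75 were higher and 39 lower with VC at day 4, beside 1779 and 1592 of 13716 protein-coding genes. The genes named next were chosen after their values were seen. Ptgs2os2, a transcript on the strand opposite to Ptgs2 on chromosome 1, read 2.25, 2.76 and 2.32 CPM without VC and 14.6, 14.9 and 17.8 CPM with VC (log2 fold change 2.69, SE 0.25, adjusted p = 1.48e-10). Its groups did not overlap, and its change at day 0 was -0.073 (adjusted p of the difference 2.39e-06), as Ptgs2 itself had its larger change at day 4. Zfas1, a host transcript of small nucleolar RNAs that overlaps Znfx1 on the other strand, read 36.6, 34.5 and 39.6 against 86.5, 119 and 117 CPM (log2 fold change 1.54, adjusted p = 5.19e-06), a larger change than at day 0 (adjusted p of the difference 0.00104). H19, an imprinted transcript of fetal tissue, fell by 1.20 on the log2 scale. Among 303 processed pseudogenes tested, 19 rose and 2 fell, shares below the 12% and 10.4% of all genes, and their reads cannot be told apart from those of their parent genes with certainty.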
